A study of Mus musculus with 10 samples.

Results

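Cluster 16 of the colonic cells was taken as the authors labelled it in the deposited table of cells. It held 59 of the 3065 kept colonic cells, 16 of them from the library of normal colonic crypts and 43 from the library of crypts of mice treated with DSS, against 25204 kept cells in the 10 libraries of the series. The authors gave the cluster a number and the word "other", with no cell type. Read against markers, it was an enteroendocrine-like cluster, and most of its cells carried the RNA for serotonin synthesis. What follows describes these cells, how they differ among themselves, and how the cells from the DSS library stood beside those from the normal library.

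Enteroendocrine cells are the scattered hormone-secreting cells of the gut lining. They pack peptides or amines into dense-core granules, whose matrix is built from chromogranins, and release them when nutrients, microbial products or stretch reach the cell. In the colon the most frequent are enterochromaffin cells, which make serotonin from tryptophan through the enzyme Tph1, and L cells, which make the peptides PYY, GLP-1 (from the gene Gcg) and INSL5.

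Both libraries were droplet-based single-cell RNA libraries of mouse colonic crypts, 1 library per condition, so no difference between them has a replicate check. DSS, dextran sulfate sodium, is a polymer given in the drinking water that injures the colonic lining and brings on colitis. The study's methods describe a short DSS course followed by normal water, in 8-week-old female mice, but neither methods nor labels tie a strain, a number of animals or a day of sampling to these libraries, and whether several animals were pooled is not given. The remaining 8 libraries are organoids grown from crypts of the proximal small intestine. They were kept in ENR medium (EGF, Noggin and R-Spondin 1), in the study's Hyper medium, or in Hyper medium without VPA and EPZ6438 (-VE). Their passages differed, and some are labelled as derived from ENR-organoids and others from primary crypts.

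The values are UMIs, each of which marks 1 captured RNA molecule. The 16 normal cells held 155580 UMIs in all, with a median of 9259 per cell and a range from 1191 to 32219. The 43 DSS cells held 285226 UMIs, with a median of 6792 and a range from 1056 to 18815. The other kept colonic cells were deeper, with medians of 18618 UMIs in the normal and 16723 in the DSS library. Mitochondrial genes took a median of 5.34% of the UMIs of normal and 6.21% of DSS members, beside 10.1% and 8.60% in the other cells. The authors kept 1132 of 3627 normal and 1933 of 4746 DSS barcodes. Among kept colonic cells 2 barcodes occurred in both libraries, and no barcode of a member recurred in another library. A level below is in CPM, the UMIs of a gene summed over cells and scaled to the summed UMIs of the same cells, and intervals are exact 95% Poisson intervals of the count or exact Clopper-Pearson intervals of a share, which cover counting error only.

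The libraries differed in sex-linked RNA, in the members and in all other cells. Xist, the RNA that coats the inactive X chromosome of female cells, had 189 UMIs in 15 of the 16 normal members and 0 UMIs in the DSS members. In the other colonic cells it stood at 471 CPM in the normal and 0.0934 CPM in the DSS library. The Y-linked genes Ddx3y, Eif2s3y, Kdm5d and Uty had 0 UMIs in the normal library, and had 16, 19, 5 and 7 UMIs in the DSS members. The DSS library therefore carried Y-linked RNA although the methods name female mice for the colitis model, and the effects of DSS, of sex and of the library cannot be told apart in what follows.

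Of 25 marker lists, 1 described the cluster under the rule that its summed level in both libraries be more than 10 times that in the other colonic cells, with at least 3 markers in 25% or more of the members of each library. The 14 enteroendocrine markers summed to 76867 CPM in the normal members and 58799 CPM in the DSS members, against 30.3 and 28.6 CPM in the other colonic cells. In the normal sum 20182 CPM was Pyy, all of it in 1 cell. Of the markers 10, namely Chga, Chgb, Neurod1, Tph1, Scg5, Cpe, Rfx6, Pcsk1n, Fev and Sct, reached the 25% share in both libraries. The lowest cell of the cluster held 10307 CPM of the list. Among the other clusters with at least 20 cells, cluster 17 was highest at 170 CPM. At least 3 of the markers were present at 3 UMIs or more in 16 of 16 normal and 41 of 43 DSS members. The same was found in 1 of the 1116 other normal cells and 0 of the 1890 other DSS cells, which allows a share of up to 0.195% by the Clopper-Pearson interval. The authors' clusters were made from these same counts, so the low share outside the cluster is a description and no test of the markers. The members kept an epithelial profile: the pan-epithelial list, led by Krt8, stood at 13331 CPM in normal and 12941 CPM in DSS members, beside 16874 and 14971 CPM in the other cells. Epcam, an adhesion protein of epithelium, had a UMI in 14 of 16 normal and 40 of 43 DSS members.

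**Figure D1:**
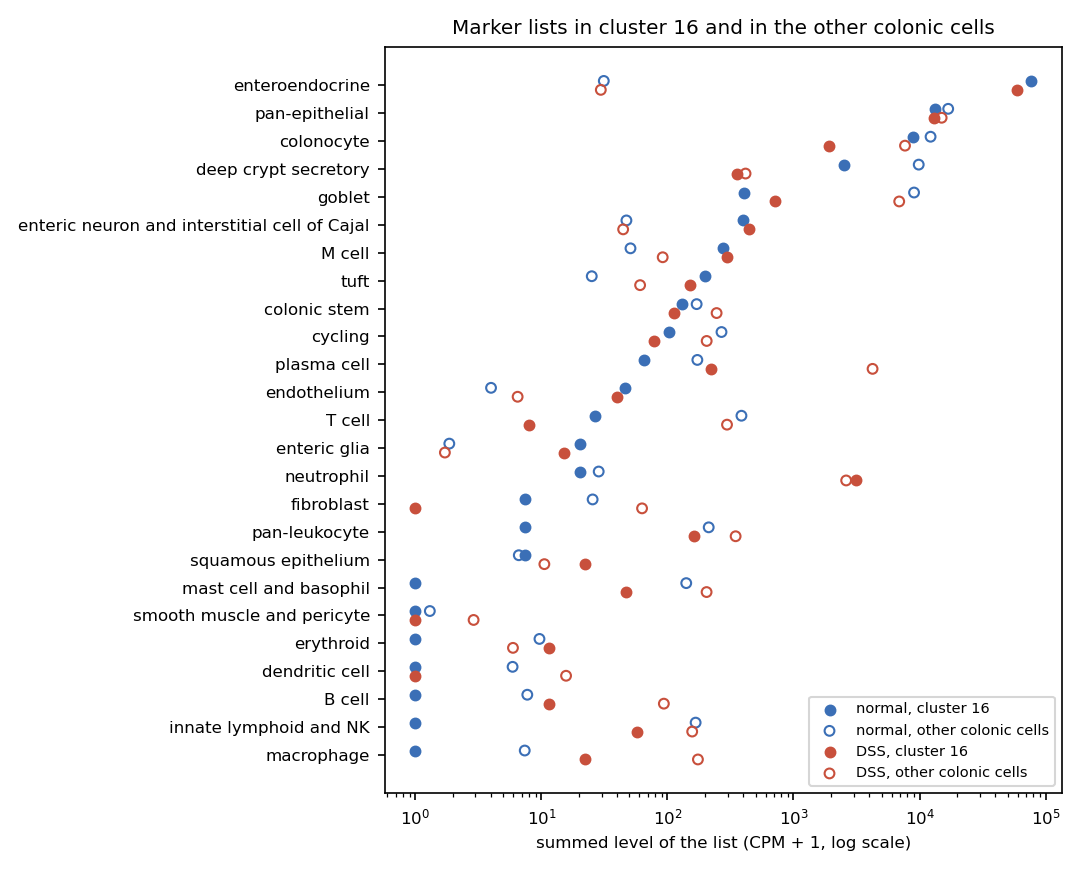
Summed level of each of the 25 marker lists (CPM + 1, log axis) in cluster 16 (filled points) and in the other kept colonic cells (open points), for the normal library (blue) and the DSS library (red). The enteroendocrine list stands at 76867 and 58799 CPM in the cluster and near 30 CPM elsewhere, and the neutrophil list of the DSS members is carried by 1 cell.

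Markers of other types were low in most members. T cell, B cell, macrophage, dendritic cell, fibroblast, plasma cell and smooth muscle lists each stood below 1% of their level in the colonic cluster where they were highest, and the defining genes Cd3e, Ms4a1, Csf1r, Col1a1 and Acta2 had 0 UMIs over the 59 cells. The tuft list stood at 3.90% of its level in cluster 15, with Dclk1, Trpm5 and Pou2f3 at 0. Cycling genes stood at 4.64% of their level in cluster 13, with Mki67 and Top2a at 0. The list of enteric neurons and interstitial cells of Cajal stood at 399 CPM in normal and 445 CPM in DSS members, against 46.3 and 43.5 CPM elsewhere. Of its level of 429 CPM over both libraries, 388 CPM was Snap25, a membrane-fusion protein that endocrine cells also use, followed by Elavl4 at 18.1 and Ano1 at 13.6 CPM. The colonocyte list reached 12.8% of its level in cluster 6, led by Car1 at 1436, Krt20 at 1243 and Guca2a at 821 CPM, and 1 normal cell held most of it, as described below.

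The remaining lists that passed 10% of their level in their highest cluster did so at low values. Stem cell genes stood at 118 CPM, or 18.5% of cluster 2, through Rgmb at 43.1, Lrig1 at 40.8 and Axin2 at 18.1 CPM, while Lgr5, Ascl2 and Smoc2 had 0 UMIs. M cell genes stood at 25.6% of cluster 21, with Anxa5 at 274 CPM and the defining gene Gp2 at 0. Endothelial genes stood at 46.1% of cluster 18 with 40.8 CPM, squamous genes at 71.8% of that cluster with 15.9 CPM, glial genes at 15.9 CPM against 2.83 in their highest cluster, and erythroid genes at 13.9% with 6.81 CPM, and the highest gene of these 4 lists was Pecam1 at 24.95 CPM. The goblet list stood at 0.488% and the deep crypt secretory list at 0.596% of cluster 19, the neutrophil list at 0.725% and mast cell and pan-leukocyte lists at 1.59% and 1.21% of cluster 15, and the innate lymphoid list at 0.312% of cluster 11.

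Across 14690 genes, the profile of cluster 16 was closest to that of cluster 5 (Pearson r = 0.816) and cluster 2 (r = 0.815), the latter named stem by the authors. These correlations are across genes, with no p, and neighbours in that order were not separated: the first 3 clusters lay between 0.813 and 0.816. The enteroendocrine list stood at 46.1 CPM in cluster 5 and 19.4 CPM in cluster 2.

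The leading genes, chosen as the 20 with the largest ratio over the other cells in the library where it was smaller, among genes found in 50% or more of the members of each library included 5 of the hormone list, 5 of the granule and processing list and 2 of the transcription factor list. Since the authors' clusters were made from these same counts, the levels are a description and were not tested. Chgb and Chga, the granins that form the granule matrix, were the most abundant. Chgb (chr2:132781278-132795079 on mm10) stood at 22317 CPM (21580 to 23071) in normal and 25198 CPM (24618 to 25787) in DSS members, and had a UMI in 16 of 16 and 41 of 43 cells. Chga (chr12:102554969-102565028) stood at 13048 CPM (12487 to 13628) and 15093 CPM (14646 to 15551), with a UMI in 16 of 16 and 42 of 43 cells. In the other colonic cells Chgb stood at 9.87 and 3.21 CPM, and 183 of its 195 UMIs in the other normal cells lay in 1 cell.

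Serotonin genes came next. Tph1, which adds the hydroxyl group to tryptophan in the first step of serotonin synthesis (chr7:46644641-46672537), stood at 5206 CPM (4854 to 5578) in normal and 7229 CPM (6921 to 7548) in DSS members, beside 0.81 and 1.03 CPM in the other cells. It had a UMI in 15 of 16 normal and 39 of 43 DSS members. Ddc, the decarboxylase of the following step, stood at 1420 and 1399 CPM, and unlike Tph1 it was also found elsewhere, in 38.8% of the other normal and 34.0% of the other DSS cells. Slc18a1, the transporter that loads monoamines into granules, stood at 488 and 582 CPM. Its neuronal relative Slc18a2 had 3 UMIs in each library. The serotonin uptake transporter Slc6a4 had 0 UMIs in normal and 1 UMI in DSS members, and the neuronal enzyme Tph2 had none.

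The sequences shown here are the RefSeq promoters, on build GRCm38.p6, of Chgb, Chga and Tph1, the genes that head the list. Each runs from 250 bases before to 50 bases after a transcription start, is written 5′ to 3′ on the strand of the gene, and has in capitals the letters TGACGT or their reverse complement ACGTCA, the core of the cAMP response element.
Chgb, chr2:132781392-132781691, plus strand: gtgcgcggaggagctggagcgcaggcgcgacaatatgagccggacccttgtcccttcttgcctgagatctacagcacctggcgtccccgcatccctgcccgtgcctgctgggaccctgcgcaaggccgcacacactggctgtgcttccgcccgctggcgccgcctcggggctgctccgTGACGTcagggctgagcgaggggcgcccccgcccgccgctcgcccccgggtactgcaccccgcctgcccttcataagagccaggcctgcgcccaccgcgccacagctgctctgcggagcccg
Chga, chr12:102554691-102554990, plus strand: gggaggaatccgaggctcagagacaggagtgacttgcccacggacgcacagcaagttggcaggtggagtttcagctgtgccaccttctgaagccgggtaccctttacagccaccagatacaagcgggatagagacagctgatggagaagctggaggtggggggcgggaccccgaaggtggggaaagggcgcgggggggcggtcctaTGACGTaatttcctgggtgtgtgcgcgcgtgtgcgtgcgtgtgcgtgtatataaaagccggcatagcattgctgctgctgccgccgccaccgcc
Tph1, chr7:46672488-46672787, minus strand: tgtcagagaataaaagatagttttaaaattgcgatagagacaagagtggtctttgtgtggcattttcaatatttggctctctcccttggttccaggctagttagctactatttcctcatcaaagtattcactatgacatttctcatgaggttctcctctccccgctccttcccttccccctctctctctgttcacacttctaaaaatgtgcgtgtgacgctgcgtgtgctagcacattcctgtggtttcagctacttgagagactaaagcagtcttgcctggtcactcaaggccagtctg
Tph1, chr7:46667328-46667627, minus strand: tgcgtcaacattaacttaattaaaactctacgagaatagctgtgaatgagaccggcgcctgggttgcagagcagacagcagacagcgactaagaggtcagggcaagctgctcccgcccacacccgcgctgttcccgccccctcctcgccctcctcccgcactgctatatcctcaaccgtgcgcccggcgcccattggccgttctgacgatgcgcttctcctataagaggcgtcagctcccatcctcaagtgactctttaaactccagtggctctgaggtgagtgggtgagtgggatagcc

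Chgb and Chga each held 1 such core upstream of the start, and neither Tph1 promoter held it. At Chgb the letters run on into the reverse complement, so both forms overlap in the same site and only the first is in capitals. Of the 20 leading genes 14 were matched in the promoter table by symbol. The core was found, on either strand, in 3 of these 14 genes (Chgb, Chga and Scg5) and in 8.37% of the 27025 genes of the table. The letters CAGATG or CATCTG, an E-box of the kind bound by NeuroD-type factors, were found in 3 of the 14 (Sct, Map1b and Tac1) and in 19.2% of all genes. A match is a run of letters and no more, and a gene with several promoters in the table had more chances to hold one.

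Granule and processing proteins were also among the leading genes. Pcsk1n, an inhibitor of the prohormone convertase, stood at 4686 CPM in normal and 4842 CPM in DSS members. Resp18, an endocrine granule protein, stood at 2487 (2246 to 2748) and 1399 CPM (1265 to 1543), and 240 of its 387 normal UMIs came from 1 cell that is described below. Cpe, the carboxypeptidase that trims prohormones, stood at 1710 and 1199 CPM, and Scg5, a chaperone of convertase, at 527 and 438 CPM. Of the 14 genes listed for granules and processing, 13 had at least 10 UMIs and 12 of these were 4-fold or more above the other cells in both libraries, against 4.95% of the 6590 genes with at least 10 UMIs. The median ratio of the 13 over the other cells on the log2 scale was 4.04 in normal and 4.34 in DSS members, against 0.36 and 0.49 over all 6590 genes.

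**Figure D2:**
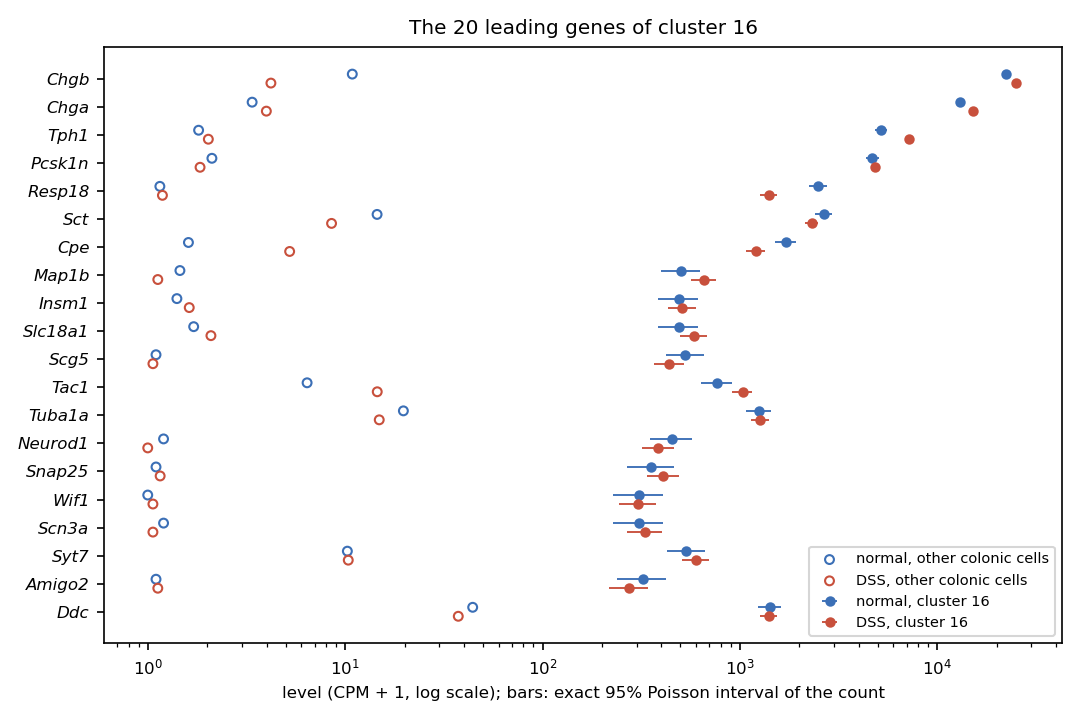
Levels (CPM + 1, log axis) of the 20 leading genes in cluster 16 (filled points, with exact 95% Poisson intervals) and in the other kept colonic cells (open points), normal in blue and DSS in red. Every gene lies at 273 CPM or above in the cluster and at 43.3 CPM or below elsewhere, and the log2 ratios of DSS over normal run from -0.83 (Resp18) to 0.47 (Tph1).

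Transcription factors of the endocrine lineage were also high. Insm1, a zinc-finger factor of endocrine differentiation, stood at 488 and 508 CPM in normal and DSS members, and Neurod1, a factor that follows the initial endocrine commitment, at 450 and 386 CPM. Fev, a factor of serotonin-making neurons and enterochromaffin cells, stood at 212 CPM (146 to 298) and 379 CPM (311 to 457), and Lmx1a, which acts with it in the same lineage, at 186 and 144 CPM. Neurog3, the factor that starts endocrine commitment and is lost in mature cells, had 0 UMIs in normal and 3 UMIs in DSS members, all 3 in 1 cell. That DSS cell held 11740 UMIs, 8 UMIs of Pax4 and 0 of Tph1, Tac1 and Sct. Of the 14 factors listed, 9 had at least 10 UMIs and 7 of these were 4-fold or more above the other cells in both libraries, beside the same 4.95% of all genes.

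Genes of electrical excitability and exocytosis, in lists drawn up after the values had been seen, were present as well. Scn3a, a voltage-gated sodium channel, stood at 309 and 330 CPM, and the calcium channel subunits Cacna1a and Cacna1h stood at 154 and 207 CPM and at 238 and 165 CPM. Of 16 channel genes 8 had at least 10 UMIs, and 7 of the 8 were 4-fold or more above the other cells in both libraries, where 4.95% of all genes were. Since these lists were made with the values in view, their counts are a description. Of 17 exocytosis genes 15 had at least 10 UMIs and 11 were that far above. Piezo2, the mechanically gated channel through which some enterochromaffin cells sense touch, stood at 270 CPM (195 to 365) in normal and 242 CPM (188 to 306) in DSS members, and at 0.354 and 0.156 CPM elsewhere. Trpa1, the irritant-sensing channel described in enterochromaffin cells, had 0 UMIs in all 59 cells. Among receptors, Ffar2, which binds short-chain fatty acids, stood at 238 and 207 CPM. Of 17 receptor genes 5 had at least 10 UMIs, and 1 was 4-fold or more above the other cells in both libraries. Of the 12 genes of serotonin synthesis, storage and uptake, also listed afterwards, 9 had at least 10 UMIs and 4 were that far above.

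The members were not all alike. Tac1, the precursor of substance P, had a UMI in 12 of 16 normal and 28 of 43 DSS members, and ranged over the normal cells from 0 to 27 UMIs with a median of 3.5, and over the DSS cells from 0 to 35 with a median of 2. Sct, the precursor of secretin, ranged from 0 to 100 UMIs in normal cells with a median of 16.5, and from 0 to 163 in DSS cells with a median of 4. The peptides were often apart. Of the 59 cells, 15 held at least 3 UMIs of Tac1 but not of Sct, 25 held Sct but not Tac1, 13 held both and 6 neither. In 8 of 43 DSS and 5 of 16 normal cells both were at 3 UMIs or more.

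Several other genes were found in some of the cells only. At 3 UMIs or more, Sct was held by 38 and Tac1 by 28 of all 59 cells. Reg4, a secreted lectin, reached 3 UMIs in 10 cells, and all 10 also held Tac1 at that level while 2 held Sct. Olfr78, an olfactory-type receptor described as a sensor of microbial metabolites, reached 3 UMIs in 4 cells, all with Tac1 and 1 with Sct. Piezo2 reached 3 UMIs in 16 cells, of which 11 held Sct and 5 Tac1, and none held Reg4 or Olfr78. In the normal library 3 of its 5 cells held Sct and 3 held Tac1. Gsdma, a gasdermin, reached 3 UMIs in 19 cells, of which 18 held Sct, 7 Tac1 and 10 Piezo2. These are counts of cells and were not tested. They depend on depth, since a cell of 1056 UMIs can rarely show a gene of low level. Thinned to 1000 UMIs per cell, Chgb was seen in 15 of 16 normal and 40 of 43 DSS cells, Tph1 in 14 and 36, Sct in 12 and 25, Tac1 in 6 and 17, Piezo2 in 3 and 10, and Gsdma in 4 and 12. Outside the cluster, Tac1 had a UMI in 5.65% of the other normal and 10.95% of the other DSS cells, with up to 21 UMIs in a cell, and Sct in 12.6% and 8.15%, with up to 23. The source of these UMIs was not tested.

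**Figure D3:**
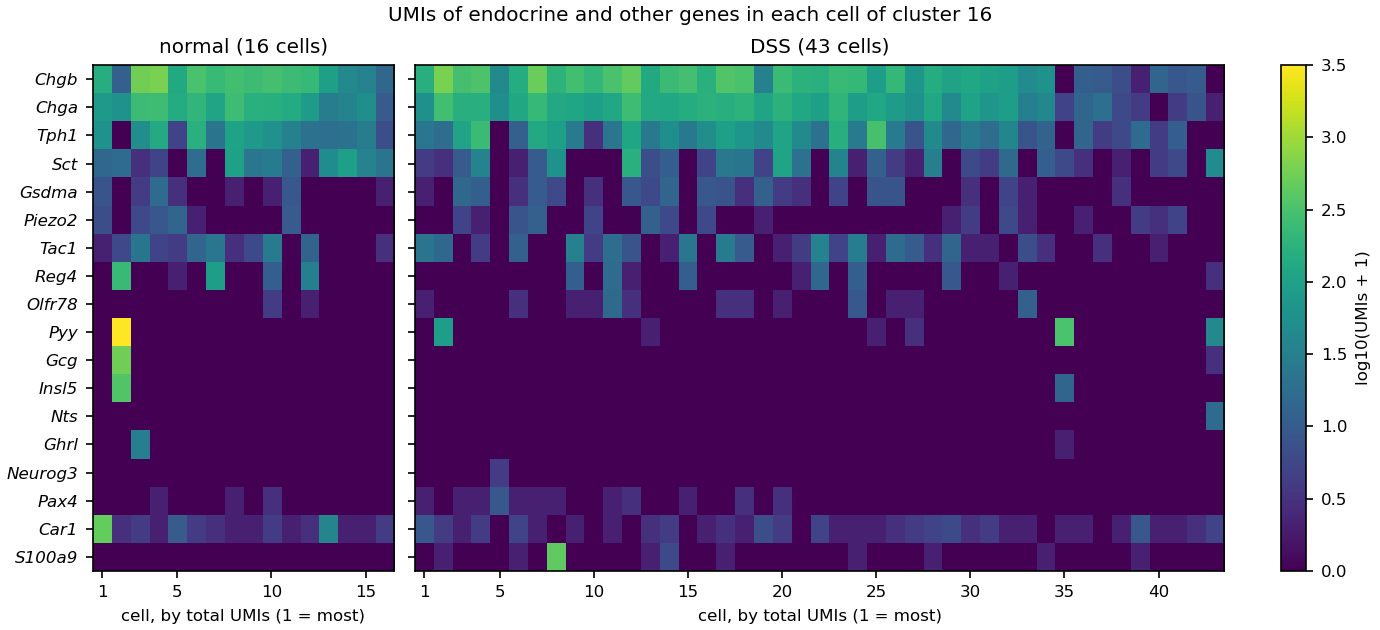
UMIs of 18 genes in each of the 59 cells of cluster 16, as log10(UMIs + 1) by colour, with the cells of each library ordered by total UMIs. Chgb, Chga and Tph1 fill most columns, Sct and Tac1 are each present in part of the cells, and Pyy is high in 1 normal and 3 DSS cells. Car1 is highest in 1 normal cell (475 UMIs), with 38 UMIs in another normal cell, and S100a9 is high in a single cell.

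Cells with the peptides of L cells were few. Pyy had 3140 UMIs in 1 normal cell and none in the other 15. That cell, with 18355 UMIs the second deepest of its library, also held 556 UMIs of Gcg, 350 of Insl5, 228 of Reg4 and 240 of Resp18, 11 of Chgb, 62 of Chga and no Tph1. In the DSS library Pyy reached 3 UMIs in 3 of 43 cells, with 320, 90 and 44 UMIs. The cell with 320 held 13 UMIs of Insl5, none of Gcg and none of Tph1. The cell with 90 held 624 UMIs of Chgb and 17 of Tph1, so Pyy and Tph1 were found in the same barcode. That barcode, the normal cell with Pyy and the DSS cell with 320 were among the 5% of cells with the highest doublet scores of their libraries. The cell with 44, of 1056 UMIs, held 48 UMIs of Sct, 16 of Nts (neurotensin) and 2 of Gcg. Ghrl, the precursor of ghrelin, was at 30 UMIs in 1 normal cell that also held 53 UMIs of Tph1, and Sst, the somatostatin gene, had none in the 59 cells. Tph1 was absent from 1 of 16 normal and 4 of 43 DSS members.

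Some members also held RNA of another cell class, counted as at least 3 of its markers at 3 UMIs or more: 4 normal cells and 1 DSS cell for colonocytes, and 1 DSS cell for neutrophils. The deepest normal cell, with 32219 UMIs, held 1093 UMIs of the colonocyte list and 8 of its 10 markers, beside 152 UMIs of Chgb and 62 of Tph1. It held 475 of the 546 UMIs of Car1, the carbonic anhydrase of surface colonocytes, in the normal members. The other colonocyte cases held between 21 and 81 UMIs of the list. The case with 81 was a normal cell of only 4681 UMIs, with 38 UMIs of Car1, and was also among the 5% highest doublet scores. A DSS cell of 9934 UMIs held 872 UMIs of the neutrophil list and 436 of the 449 UMIs of S100a9, a calcium-binding protein of neutrophils, beside 182 UMIs of Chgb. The deepest normal cell and this DSS cell were among the 5% of cells with the highest Scrublet doublet score of their library, as were 3 of 16 normal and 7 of 43 DSS members in all. Whether they are doublets was not tested.

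The share of the cluster was 1.41% (0.810 to 2.29) of the normal and 2.22% (1.61 to 2.98) of the DSS cells, and the intervals overlapped. Without the 6 clusters in which more than 50% of cells held a UMI of the leukocyte gene Ptprc, the shares were 1.75% (1.00 to 2.83) and 2.89% (2.10 to 3.87). With 1 library per condition the difference cannot be set against the spread between animals.

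The question for the comparison of conditions was which genes differed between enteroendocrine-like cells of injured and normal colon. None of the 20 leading genes was called apart, while the hormones Pyy and Gcg, each held by 1 normal cell, were. The leading genes were chosen for presence in many members of both libraries and by the smaller of their ratios over the other cells. That choice disfavours genes that are low in either library, so the lack of calls among the 20 is no test of the comparison. On the log2 scale with 10 CPM added, the ratio of DSS over normal was 0.18 for Chgb, 0.21 for Chga, 0.47 for Tph1, 0.43 for Tac1, 0.05 for Pcsk1n and -0.20 for Sct. These ratios depended on the cells and their weight. Chgb ran from -0.31 to 0.23 and Chga from -0.25 to 0.29 over the alternatives, and Sct stood at -1.40 with equal weight per cell, -1.51 thinned to 1000 UMIs per cell and 0.32 among members that passed the stricter filter on genes per cell stated in the methods for organoids. The hormone list had 11 of 14 genes with at least 10 UMIs and a median of -0.20 (-1.17 with equal weight per cell), with 1 higher (Nts, in 1 cell) and 4 lower (Gcg, Insl5, Ghrl and Pyy), all 4 carried by 1 normal cell each. The granule and processing list had a median of -0.18 over 13 genes and the transcription factors 0.06 over 9, beside 0.10 over all 6590 genes with at least 10 UMIs. Neither of these lists had a gene 4-fold higher in DSS with intervals apart, and 1 granule gene was lower: Scg2, secretogranin II, with 15 UMIs in 1 normal cell against 1 UMI in DSS. Over all 6590 genes, 0.774% were that far higher and 0.986% that far lower in DSS.

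Of the 2734 genes with at least 30 UMIs, 18 were 4-fold or more higher in the DSS members with intervals apart (0.658%) and 35 lower (1.28%). These genes were mostly the property of single cells. In 33 of the 35 lower and 12 of the 18 higher genes, 1 cell held more than 50% of the UMIs of the higher library. Between them, 3 cells were the top cell of 42 of the 53 genes: the deepest normal cell for 27, the normal cell with Pyy for 5 and the DSS cell with the neutrophil genes for 10. Leaving out, for each gene, its top cell in the higher library kept 5 of the 18 higher and 7 of the 35 lower genes 4-fold apart with intervals apart. The filter of 30 UMIs was not applied again, and some of these genes had fewer UMIs left. The choice was made after seeing the data.

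**Figure D4:**
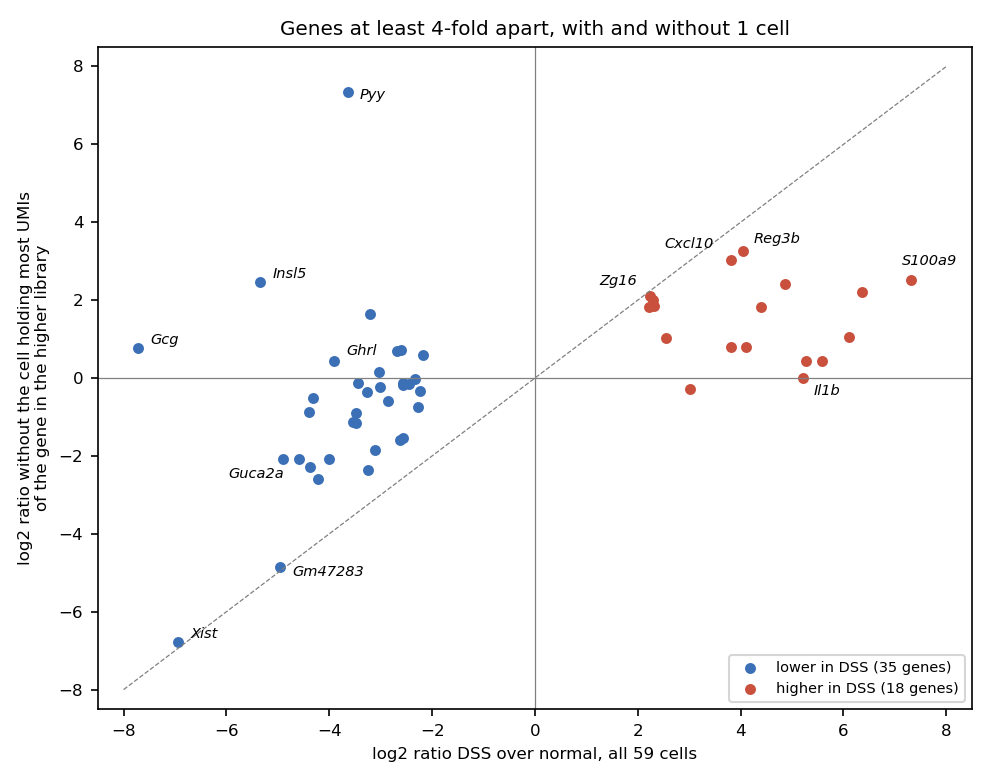
Each of the 53 genes at least 4-fold apart between the DSS and the normal members, by its log2 ratio over all 59 cells (horizontal) and without the cell that holds most of its UMIs in the higher library (vertical), with the dashed line marking equal values. Xist and Gm47283 stay close to the line, Reg3b, Cxcl10 and Zg16 near it, and most others move toward 0 or cross it, among them Pyy, Insl5, Gcg and Ghrl.

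Of the 8 genes with the lowest ratio, 6 were held mostly by 1 cell. Gcg (556 UMIs against 2) and Insl5 (350 against 13) came each from the 1 normal cell with L cell peptides, with ratios of -7.72 and -5.35 on the log2 scale that turned to 0.77 and 2.47 without it. Pyy followed the same cell, from -3.64 to 7.34. Guca2a, the precursor of guanylin, Ly6a, a surface antigen of injured epithelium, Slc26a3, a chloride exchanger, and the unnamed gene 2010109I03Rik had ratios from -4.90 to -4.37, and the deepest normal cell held between 83.0% and 93.8% of their UMIs. Without it Guca2a at -2.08 and Slc26a3 at -2.29 were still called lower, and Ly6a and 2010109I03Rik were not. Guca2a and Slc26a3 are both on the colonocyte list. Without all members that held another class, Guca2a was at -0.74 and Slc26a3 at 0.83, neither of them 4-fold apart. Xist was at -6.94. Gm47283, annotated on chromosome Y from 90784738, was at -4.96, and in the other cells it stood at 141 CPM in the normal and 0.436 CPM in the DSS library, the direction of Xist and the opposite of the Y-linked genes. These last 2 were each in 15 of 16 normal and 0 DSS members, with no cell holding more than 15.9% of the UMIs.

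Among the 8 genes with the highest ratio, S100a9, S100a8, Retnlg, Cxcl2, Wfdc17 and Il1b had ratios from 5.21 to 7.31 and had between 95.7% and 100% of their DSS UMIs in the cell with the neutrophil list, and Slpi at 4.86 had 85.0% in it. Each had 0 UMIs in the normal members, so the ratios depend on the added 10 CPM and are no bound. The same genes were higher in the other cells of the DSS library, with ratios from 2.46 to 7.13. With the cell with the neutrophil list left out, S100a9 was still called higher, at 47.2 CPM in DSS members and a ratio of 2.52. None of the other genes named here was then past the limits on fold and intervals. Cd74, the invariant chain of MHC class II, had 57 UMIs in 7 DSS cells and 0 in normal members, and 87.7% of them lay in another single cell, which was also the top cell of Cxcl10.

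The genes that were higher in DSS and spread over several cells were few. Reg3b, an antimicrobial lectin induced by injury, had 3 UMIs in 3 of 16 normal cells and 135 UMIs in 34 of 43 DSS cells, at 19.3 CPM (3.98 to 56.3) and 473 CPM (397 to 560), a ratio of 4.04. No normal cell held more than 1 UMI, and the highest DSS cell held 63. That cell was the deepest of the DSS members, held 4 colonocyte markers and was among the 5% highest doublet scores. Without it Reg3b stood at 270 CPM in DSS members, a ratio of 3.26, and was still called higher. Over all members the level was far below that of the other cells, at 1120 CPM in normal and 6788 CPM in DSS, where 84.0% of cells had a UMI, and the part of free RNA was not tested. Cxcl10, a chemokine induced by interferon, had 1 UMI in normal members and 63 UMIs in 8 DSS cells, a ratio of 3.81 that was 3.03 without its top cell, while the other colonic cells differed by 0.35. Zg16, a mucus lectin of goblet cells, had 4 UMIs in 4 normal and 45 UMIs in 26 DSS cells, a ratio of 2.23. It too was higher in the other cells, at 561 and 783 CPM. Tmem158 had 2 UMIs in 2 normal and 29 UMIs in 12 DSS cells, at 12.9 and 102 CPM, and stood at 2.68 and 4.08 CPM elsewhere. Olfr78 had 4 UMIs in 2 normal and 48 UMIs in 13 DSS cells and 0 UMIs in the 3006 other colonic cells, with a ratio of 2.32 that was 1.86, under the limit, without its top cell. Nupr1, a stress-induced nuclear protein, had 11 UMIs in 3 normal and 104 UMIs in 19 DSS cells, at 70.7 and 365 CPM. Its ratio of 2.21 was 1.84, under the limit, without its top cell, and the other colonic cells stood at 161 and 333 CPM.

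With these 3 cells (the deepest normal cell, the normal cell with Pyy and the DSS cell with neutrophil genes) left out together, also a choice made after seeing the data, 11 genes were higher and 5 lower in DSS. Fewer genes reach 30 UMIs when cells are left out, so the shares given above do not apply to these counts. The lower ones were Xist, Gm47283, Ghrl, Guca2a and Reg4, of which Ghrl rested on 1 normal cell and Reg4 mainly on another, with 87 of the 129 UMIs. Guca2a, a gene of the colonocyte list, was at -0.74 without all members that held another class. Among the higher ones, Pyy follows from leaving out the 1 normal cell that held it while the DSS cells were kept, and 50 of the 56 UMIs of Cd74 lay in 1 DSS cell, so neither is a result of its own. The same holds for Sprr1a, with 40 of its remaining 51 UMIs in 1 DSS cell. The others were Reg3b, Cxcl10, Dmbt1, Atraid, Hao2, Zg16, Adh1 and Nupr1. Dmbt1 stood at 57.1 CPM in normal and 400 CPM in DSS members, below the 1369 and 2398 CPM of the other colonic cells. Hao2 stood at 19.0 and 127 CPM, with 35 UMIs in 8 DSS cells, below 338 and 264 CPM elsewhere. Adh1 was also higher in the other DSS cells, by 1.23. Atraid stood at 19.0 and 138 CPM, beside 70.2 and 95.1 CPM elsewhere. The part of free RNA in these genes was not tested. Endocrine genes then stood as follows. Chgb stood at 31512 CPM in normal and 25446 CPM in DSS, Chga at 17999 and 15169, Tph1 at 7123 and 7145, and Tac1 at 1076 and 1068. Sct stood at 3657 CPM (3300 to 4042) and 2183 CPM (2012 to 2365), a ratio of -0.74. The enteroendocrine list summed to 68786 CPM in normal and 59039 CPM in DSS.

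Several interferon-response genes stood lower in the DSS members. Of 20 listed, 11 had at least 10 UMIs, with a median ratio of -1.42 beside 0.10 over all genes of that filter, and Isg15, Oasl2 and Ifit1 were 4-fold or more lower with intervals apart, as were 0.986% of all genes. Isg15, a ubiquitin-like protein, stood at 431 CPM in normal and 28.0 CPM in DSS members, and 86.6% of its normal UMIs lay in the deepest normal cell. The other colonic cells had the same direction, with a median of -0.98 over these 11 genes and ratios of -3.43 for Isg15 and -2.60 for Oasl2. Without the 3 cells the median was -0.31 over the 9 genes left, with 1 gene lower, and without all members that held another class it was 0.19 over 6 genes.

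Among the remaining lists, the injury list had 12 of 20 genes with at least 10 UMIs, 3 higher and 2 lower in DSS, where 0.774% and 0.986% of all genes were, with a median of -0.10 that was 0.29 without the 3 cells and 0.63 without members that held another class. The same genes had a median of 0.41 in the other colonic cells. Ly6a and Clu were the lower ones. Lcn2 and Reg3g were higher beside Reg3b. Of the 37 UMIs of Lcn2, 35 lay in the cell with neutrophil genes, while Reg3g had 14 UMIs in 11 DSS cells and 0 in normal members, beside 149 and 1213 CPM in the other cells. Without the 3 cells 1 gene of the list was higher and 1 lower. The interval of Reg3g in DSS members, 27.8 to 85.3 CPM, then overlapped the normal one, which reached 35.1 CPM. NF-kB targets had 9 of 12 with a median of 0.40 and 1 higher gene, Cxcl2. Of the 133 UMIs of Cxcl2, 132 lay in the cell with neutrophil genes. Without the 3 cells the median of these targets was 0.06 over 7 genes, with none past the limits. Dissociation and immediate early genes such as Fos and Jun had 16 of 16 with a median of 0.10, none past the limits, and summed to 22432 CPM in normal and 23939 CPM in DSS members, against 12222 and 10880 CPM in the other cells. Hypoxia and glycolysis (median -0.33 over 10), apoptosis (0.05 over 10), Wnt (0.32 over 4) and Notch (0.38 over 3) had no gene past the limits. Of the MHC class II list only Cd74 had 10 UMIs. The lists made afterwards had medians of 0.53 for serotonin genes (1 lower, Maoa), 0.05 for channels, -0.19 for receptors (1 higher, Olfr78) and 0.30 for exocytosis. Of the 43 UMIs of Maoa in normal members, 32 lay in the deepest cell, and without it the ratio was -0.75, under the limit. Without the 3 cells the serotonin median was 0.21, with 0 genes lower.

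The organoid libraries hold a class that the authors named EE, with 664 cells and between 61 and 107 per library. These come from small intestine in culture, and no difference from the colonic cluster was tested because tissue, culture and library differ together. The organoid libraries also differ among themselves in medium (ENR, -VE or Hyper) and passage, and the ranges below run over all of them. Some endocrine genes were higher in the colon than in all 8 organoid libraries. Tph1 ranged from 70.1 to 828 CPM over the 8 organoid libraries with a median of 368, below both colonic values of 5206 and 7229. Chga ranged from 657 to 2248 CPM against 13048 and 15093, Pcsk1n from 50.5 to 196 against 4686 and 4842, and Sct from 211 to 1528 against 2661 and 2317. Chgb came nearest, with 20472 CPM in the highest organoid library against 22317 and 25198. Piezo2 had no UMI in any organoid library, and Gsdma ranged from 0.777 to 30.1 CPM against 251 and 452.

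Other hormones stood the opposite way. Cck ranged from 644 to 14997 CPM over the organoid libraries against 51.4 and 7.01 CPM in the colon, Gip from 460 to 12989 against 0 in both, and Ghrl from 1129 to 4060 against 193 and 3.51. Tac1 was also higher in all 8 organoid libraries, from 1275 to 3172 CPM against 765 and 1031. Neurog3 ranged from 464 to 1078 CPM against 0 and 10.5. It stood at 933 CPM or above in the Hyper libraries and at 784 CPM or below in the others. The convertase Pcsk1 and the calcium-binding protein Scgn were above both colonic values in 8 of 8 organoid libraries, Insm1 and Rfx6 in 7 and Nkx2-2 in 5. Neurod1, Fev and Pax6 had organoid libraries on both sides. Gcg ranged from 10.0 to 5000 CPM, against 3574 CPM in normal and 7.01 CPM in DSS members, and Insl5 did not exceed 9.32 CPM against 2250 and 45.6. By medium, Gcg stood at 1029 to 5000 CPM in ENR, 498 to 2197 in -VE and 10.0 to 18.8 in Hyper libraries. The normal colonic values of Gcg and Insl5 each came from 1 cell. Differences between media were not tested.

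**Figure D5:**
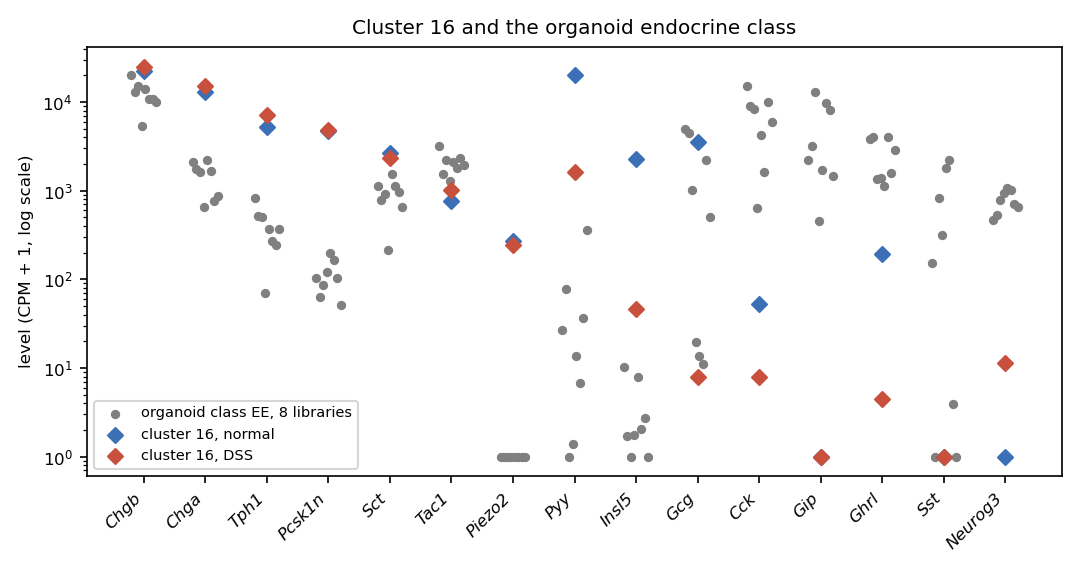
Levels (CPM + 1, log axis) of 15 endocrine genes in cluster 16 of the colon (blue diamonds, normal; red diamonds, DSS) and in class EE of each of the 8 organoid libraries (grey points, ENR, -VE and Hyper media together). Tph1, Chga and Pcsk1n lie above all grey points in both colonic libraries, and Cck, Gip, Ghrl and Neurog3 lie below them.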

How the data were processed

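The authors aligned reads to mm10 with Cell Ranger (3.0.0 in the submitters' processing notes, 3.1.0 in the matrix headers) and analysed cells with Seurat 3.1.4. They deposited UMI counts per gene and cell, not normalized, and a table with the sample and cluster of each kept cell; how colonic cells were filtered and clustered is not given in the sources used here. The 23775 genes with a unique symbol in both the count table and the matrices were compared over the kept colonic cells, and 0 entries differed. Kept cells and cluster names were used as deposited, with no further filter.

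UMIs were summed over the cluster in each library and scaled to CPM (Python 3.11.15, numpy 2.4.6, scipy 1.17.1). Ratios are log2 with a pseudocount of 10 CPM. A gene was called apart at 4-fold or more with non-overlapping exact 95% Poisson intervals, among genes with at least 30 UMIs (10 for list genes). With 1 library per condition no p-value was computed. The ratio step was checked on simulated counts. Doublets were scored with Scrublet in scanpy 1.11.5 and not removed; its own threshold called 6 normal and 7 DSS cells, too few to be used, so the 5% highest scores served as an alternative. Gene positions come from GENCODE vM21, of the same build.

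The cluster, the lists and the rules for named genes were chosen with earlier results of these data known. Named genes are the 20 leading genes, the 8 each way with the largest DSS over normal ratio, and list members with the highest values; Ifit1, Scg2, Reg3g, the genes compared cell by cell or higher in several cells and those left without 3 cells were chosen after their values were seen. Aldoa is listed under 2 identifiers, of which the first was used. Organoid matrices were not used, and organoid values come from the count table.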

Additional observations from a re-analysis of the deposited data

Results flagged for a closer look

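Barcodes that the authors did not keep were searched for the same cells, because they lie outside the comparisons above. In the DSS library, 10 of 2813 such barcodes held at least 3 enteroendocrine markers at 3 UMIs or more, 7 of them with at least 3 UMIs of Tph1 and 1 with at least 3 UMIs of Pyy. No kept colonic cell of that library outside the cluster met the same limit, of 1890. Mitochondrial UMIs made up 20.8% to 60.3% of these 10, while no kept colonic cell exceeded 20%. In the normal library 3 of 2495 barcodes did so, 2 of them above 20% mitochondrial UMIs.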

How the results depend on the processing

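No paired analysis was possible because each colonic condition is 1 library. The shares of the cluster ranged from 1.21% to 1.75% in normal and from 1.97% to 2.89% in DSS over 4 alternatives each and stayed within the main interval.

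The summed enteroendocrine level moved beyond its counting interval to 69913 CPM in normal and 61786 in DSS without the 5% highest doublet scores, 106512 and 62341 without members holding another class, and 88146 and 69325 with mitochondrial and ribosomal protein genes off the scale. The normal level moved to 81683 CPM with equal weight per cell, 82375 thinned to 1000 UMIs per cell and 68786 without the 3 cells, and was above the DSS level in each. In the main normal sum of 76867 CPM, Pyy at 20182, Gcg at 3574 and Insl5 at 2250 CPM all came from 1 cell. The order of the libraries in the main setting depends on that cell when it alone is left out. It is also left out, with other cells, in the settings without the highest doublet scores and without the 3 cells. In both of these the normal level stayed above the DSS level.

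Genes called higher and lower were 8 and 4 without the highest doublet scores (of 1929 genes), 1 and 3 after thinning (262 genes had enough UMIs), 51 and 74 with no filter, 8 and 18 with a filter of 100 UMIs, 5 and 7 without the top cell of each gene, and 11 and 5 without the 3 cells. Lower genes were 7 without members of another class (of 2186 genes) and 23 with equal weight per cell, and higher genes were 11 with a pseudocount of 50 CPM. Among genes called apart, directions turned for Gcg (0.99 without the highest doublet scores, 0.79 without the 3 cells, 0.77 without its top cell), Insl5 (2.52 and 2.47 in the last 2), Ly6a (0.22 without members of another class) and Slc26a3 (0.83 there, 2.50 after thinning). Without their top cell Pyy turned to 7.34, Uchl1 to 1.63, Sprr2a3 to 0.71, Higd1a to 0.68, Ggh to 0.60, Ghrl to 0.43, Lypd8 to 0.16 and Ifitm1 to -0.27. Among genes not called, Chgb and Chga turned negative in 5 alternatives each, Tph1 and Tac1 in 1 each, and Sct turned positive in 2. Beyond the cells and genes each alternative leaves out, the cause was not tested.

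The interferon median ran from -1.53 to 0.19 and was positive without members holding another class. The median of the NF-kB targets ran from 0.06 to 3.14. With 16 and 43 cells, 1 cell can set a gene's level. A gene at 0 UMIs has an upper Poisson limit of 23.7 CPM in normal and 12.9 CPM in DSS members.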
